A study of Oryza sativa with 4 samples.

Results

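Sugar carriers of 3 families were followed in seedlings of the japonica rice cultivar Nipponbare (Oryza sativa): the sucrose transporters SUT1, SUT2 and SUT4, the SWEET proteins SWEET4, SWEET13, SWEET14 and SWEET15, and the monosaccharide transporters MST3 and MST4. The 9 loci were picked by their MSU locus identifiers, which the probe names carry, out of 52795 loci on the array. They had 10 probes among 55078 non-control probes, 1 probe for each of 8 loci and 2 for SUT2, and every one of these probes was printed as 1 spot. Of the 9 symbols, 8 matched a RefSeq entry on the right chromosome, and MST4 had no entry, so that its name rests on the list alone. The order along the chromosome was also right where it could be read. It could not be read for SWEET14 and MST3, the only matched loci of these families on their chromosomes.

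The comparison was between 2 groups. Transgenic line 40 (n = 2 arrays) is Nipponbare that overexpresses LOC_Os02g43330, a class I homeodomain-leucine zipper transcription factor gene known as HOX24, and the wild type (n = 2 arrays) is untransformed Nipponbare. Seedlings of both groups were 14 days old, came from soil pots in a greenhouse and were sampled as whole seedlings. The design text calls the replicates biological. Line 40 is a single transgenic line, the promoter of its transgene and the number of plants per sample are not given in the sources used here, and a difference between groups is therefore one between line 40 and its wild type.

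Sucrose made in leaves moves through the phloem to roots, young leaves and seeds. SUT proteins couple the movement of sucrose to that of protons and can work against a gradient. SWEET proteins let sugars pass down their gradient, those of clade III (SWEET11 to SWEET15) mainly sucrose and those of clades I and II mainly hexoses. MST proteins are proton-coupled carriers of glucose and other monosaccharides.

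The overexpressed gene fitted its label. HOX24 had processed signals of 229115 and 280179 on the line 40 arrays, against 1449 and 2116 on the wild type arrays, a log2 difference of 7.20 (SE 0.16, limma adjusted p = 0.00105). Signals of different arrays were made comparable by dividing by the array's 75th percentile, and "normalized log2 signal" is the log2 of that quotient, so that 0 stands for a spot as bright as the 75th percentile. A difference is line 40 minus wild type on this scale. Probe brightness depends on the probe as well as on the transcript, so levels were compared between arrays for 1 probe and give no order of abundance between genes. Where 1 array of a group was left out, its lone array was assumed to vary like the 2 arrays of the other group.

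None of the 9 transporter loci differed between line 40 and the wild type at the threshold used, a limma adjusted p under 0.05 over all 36900 tested loci. Over all tested loci that threshold called 2.08%, with 0.930% higher and 1.15% lower in line 40, so that 0 calls among 9 loci lie near the background. An unadjusted p under 0.05 was found for 4 of the 9 (SUT1, SWEET14, SWEET15 and MST4), against 24.9% of all tested loci. All 9 were tested, and 8 were well above background on all 4 arrays, the exception being MST4. MST4 passed the filter through the wild type arrays alone, so its p and its direction were not independent of the filter. The differences ran from -1.92 for MST4 to 0.86 for SWEET14, with a median of 0.15, where the median of all tested loci was -0.06. The median of the 9 turned to -0.05 after quantile normalization, -0.04 after cyclic loess and -0.03 without wild type replicate 1. In all, 6 lay above 0 and 3 below.

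The limma intervals (95%, per locus, not adjusted for the number of loci) bound what these arrays can show. For 5 of the 9 loci, namely SUT1, SUT2, SUT4, SWEET4 and SWEET13, the whole interval lay within a 2-fold difference in either direction, as it did for 69.8% of all tested loci. For SWEET14, SWEET15, MST3 and MST4 it reached past 2-fold in 1 direction. In a whole seedling, fewer cells of a type and less RNA per cell cannot be told apart for any of these genes.

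**Figure D1:**
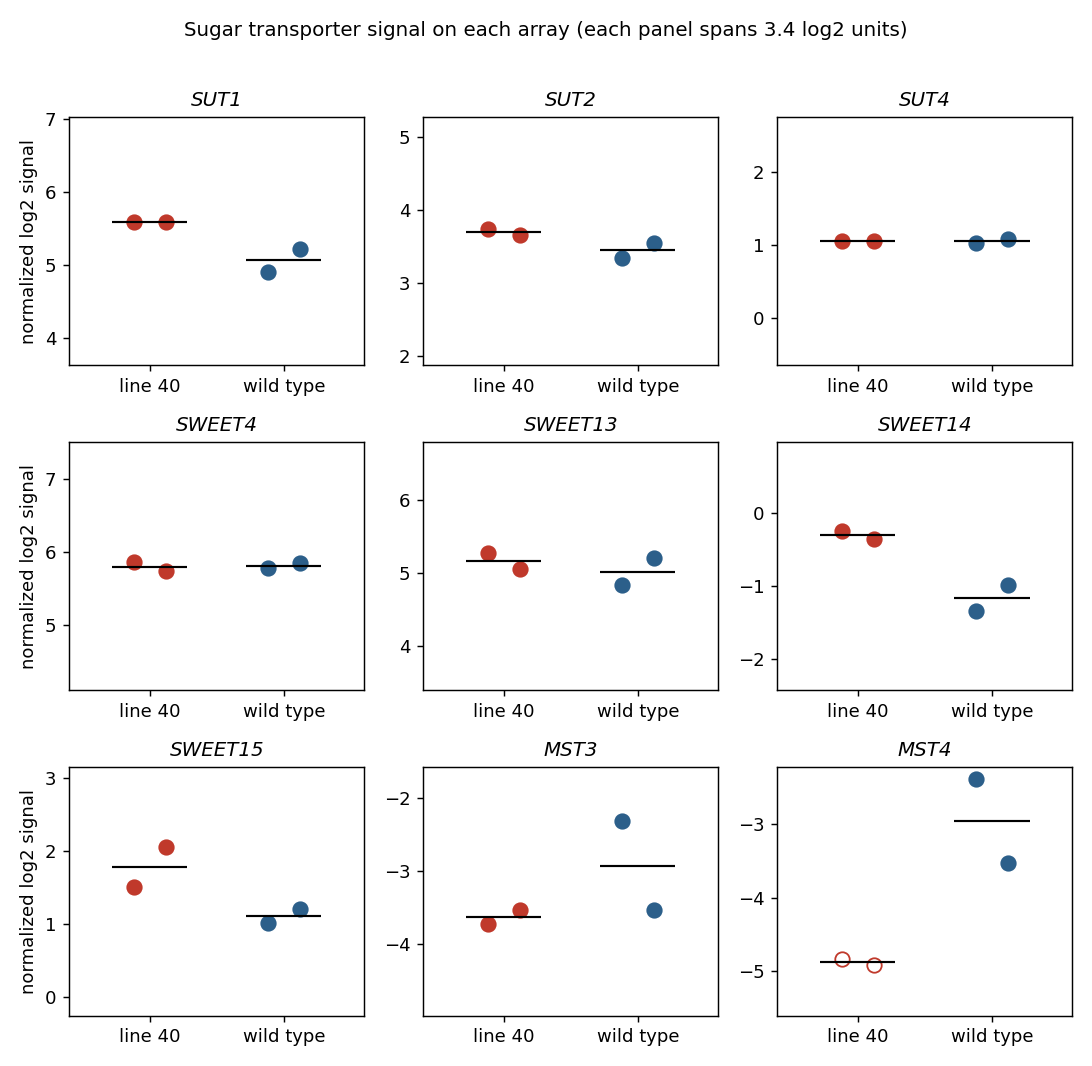
Normalized log2 signal (vertical axis, log2 units relative to the array's 75th percentile) of the 9 transporter loci on the 2 line 40 arrays (red, left) and the 2 wild type arrays (blue, right); points are single arrays in replicate order, black lines are group means, open circles are spots not well above background, and every panel spans the same height. The groups stand apart with line 40 above for SUT1, SUT2, SWEET14 and SWEET15 and with line 40 below for MST4, and they overlap for SUT4, SWEET4, SWEET13 and MST3.

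Of the 9 loci, 4 had both line 40 arrays above both wild type arrays and 1 (MST4, tested through the wild type arrays alone) had both below. Over all tested loci these shares were 25.1% and 34.3%, or 59.4% together, so such a separation of 2 arrays from 2 was common on these arrays. With groups of this size an exact permutation test of a single locus cannot give a two-sided p below 0.333.

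SUT1 (LOC_Os03g07480), the sucrose carrier of rice best known for moving sucrose in germinating seeds and in the phloem, gave bright spots. Its processed signals were 19537 and 20858 on the line 40 arrays, against 11014 and 18246 on the wild type arrays. On the normalized scale these were 5.60 and 5.60 in line 40, against 4.91 and 5.22 in the wild type. Both line 40 arrays lay above both wild type arrays, and the line 40 arrays nearly coincided whereas the wild type arrays did not. The difference was 0.53 (SE 0.17, 95% interval 0.09 to 0.98), or 1.44-fold, and it missed the threshold (limma adjusted p = 0.158). It shrank to 0.22 after quantile normalization and to 0.31 after cyclic loess, both of which also level differences that depend on brightness.

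SUT2 (LOC_Os12g44380), which in rice sits in the vacuolar membrane and lets sucrose out of the vacuole, was measured by 2 probes of very different brightness. The bright probe had normalized log2 signals of 3.74 and 3.66 in line 40, against 3.35 and 3.56 in the wild type, from processed signals of 5397 and 5454 in line 40 and 3743 and 5750 in the wild type. The groups did not overlap, but the gap between the nearest arrays was small. The difference was 0.25 (SE 0.16, 95% interval -0.16 to 0.65, limma adjusted p = 0.379). The dim probe had -3.24 and -2.91 in line 40, against -3.48 and -3.04 in the wild type, with overlapping groups and a difference of 0.19 (SE 0.22, limma adjusted p = 0.635 in the fit over all probes). Both probes thus lay slightly above 0 and neither was called.

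SUT4 (LOC_Os02g58080), another proton-coupled sucrose carrier, had the difference nearest to 0 among the 9. It had normalized log2 signals of 1.06 and 1.06 in line 40, against 1.03 and 1.08 in the wild type. The line 40 arrays lay between the wild type arrays. The difference was 0.0033 (SE 0.14, 95% interval -0.36 to 0.37, limma adjusted p = 0.991), and with this scaling the interval reached 1.29-fold in either direction. Median scaling put the difference at 0.15. Its sign turned with the scaling and with the array left out.

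Among the SWEET genes, SWEET14 (LOC_Os11g31190) showed the largest positive difference. SWEET14 is a clade III sucrose carrier and one of the susceptibility genes that the bacterial blight pathogen of rice switches on. Its processed signals were 342 and 337 on the line 40 arrays, against 145 and 246 on the wild type arrays, or -0.24 and -0.35 in line 40 against -1.33 and -0.99 in the wild type after normalization. Both line 40 arrays stood above both wild type arrays, by more than the wild type arrays differed from each other. The difference was 0.86 (SE 0.18, 95% interval 0.39 to 1.34), or 1.82-fold, with a limma adjusted p of 0.0848. Over all 13 alternative settings it lay between 0.61 and 1.04. The filters, the mean of probes, the replicate block and the value table could not move this value. Nor could leaving out 1 array turn its sign, since the groups do not overlap. The difference passed the threshold only with median scaling (1.01, limma adjusted p = 0.0313). That setting moved the median of all loci up by 0.15 and called 1485 higher and 1250 lower loci.

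SWEET15 (LOC_Os02g30910), a clade III carrier known with SWEET11 from sugar supply to the filling grain, had processed signals of 1151 and 1784 in line 40, against 738 and 1126 in the wild type. After normalization these were 1.51 and 2.05 in line 40, against 1.01 and 1.21 in the wild type. The groups did not overlap, and the line 40 arrays were further apart than those of the wild type. The difference was 0.67 (SE 0.23, 95% interval 0.08 to 1.27), or 1.59-fold (limma adjusted p = 0.169). It depended on which line 40 array was used: 0.94 without line 40 replicate 1 and 0.40 without line 40 replicate 2 (limma adjusted p = 0.221 and 0.527).

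SWEET13 (LOC_Os12g29220), the clade III gene that is a further target of the blight pathogen, gave bright spots with overlapping groups. It had normalized log2 signals of 5.28 and 5.07 in line 40, against 4.84 and 5.20 in the wild type, from processed signals of 15644 and 14421 in line 40 and 10482 and 18000 in the wild type. The second line 40 array lay below the second wild type array. The difference was 0.15 (SE 0.19, 95% interval -0.35 to 0.65, limma adjusted p = 0.665), and it turned to -0.11 after quantile normalization, -0.07 after cyclic loess and -0.03 without wild type replicate 1.

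SWEET4 (LOC_Os02g19820), a clade II hexose carrier known from sugar import into the developing grain, did not separate the groups. Its normalized log2 signals were 5.87 and 5.74 in line 40, against 5.78 and 5.85 in the wild type, so that the wild type arrays lay inside the range of line 40. The difference was -0.01 (SE 0.15, 95% interval -0.39 to 0.37, limma adjusted p = 0.966). Quantile normalization put it at -0.34 and median scaling at 0.13, neither past the threshold.

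The 2 monosaccharide carriers gave dim spots and lay below 0. MST4 (LOC_Os03g11900), a proton-coupled monosaccharide carrier of the plasma membrane, had processed signals of 14.1 and 14.2 on the line 40 arrays, against 70.3 and 42.2 on the wild type arrays. Before background subtraction the spot medians were 41 and 42.5 in line 40 over local backgrounds of 31 and 27, against 89 and 67.5 in the wild type over local backgrounds of 33 and 33. The spot stood well above background in both wild type samples and in neither of line 40, so its level in line 40 is uncertain. MST4 was thus tested through the wild type arrays alone, which favours a difference below 0. No conclusion on its direction is drawn from the fits that follow.

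In normalized log2 signal MST4 had -4.84 and -4.92 in line 40, against -2.38 and -3.53 in the wild type, with no overlap. The fitted difference was -1.92 (SE 0.39, 95% interval -2.93 to -0.91), or 3.79-fold lower in line 40, and it missed the threshold (limma adjusted p = 0.0801). Neither line 40 signal lay under its array's lowest signal well above background. The bound therefore equals this fitted value and sets no lower limit on the difference. The wild type arrays themselves differed by 1.15. Without wild type replicate 2 the difference was -2.49 and passed (adjusted p = 0.0228), with the wild type then resting on its higher array and the spread on the line 40 arrays, neither well above background, and without wild type replicate 1 the difference was -1.35 and did not pass (adjusted p = 0.0968). With median scaling it was -1.77 and passed (adjusted p = 0.00724). After normexp, which adds an offset of 50 and so compresses dim spots, the difference was -0.59 (adjusted p = 0.213), smaller in size than the fitted value above.

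MST3 (LOC_Os07g01560), a related monosaccharide carrier, had processed signals of 30.3 and 37.1 in line 40, against 73.1 and 41.9 in the wild type. Its normalized log2 signals were -3.74 and -3.54 in line 40, against -2.33 and -3.54 in the wild type. The higher line 40 array and the lower wild type array all but coincided, and only the first wild type array stood apart. The difference was -0.70 (SE 0.42, 95% interval -1.78 to 0.37, limma adjusted p = 0.349). Without wild type replicate 1 it was -0.10, and without wild type replicate 2 it was -1.31 (limma adjusted p = 0.780 and 0.0560).

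**Figure D2:**
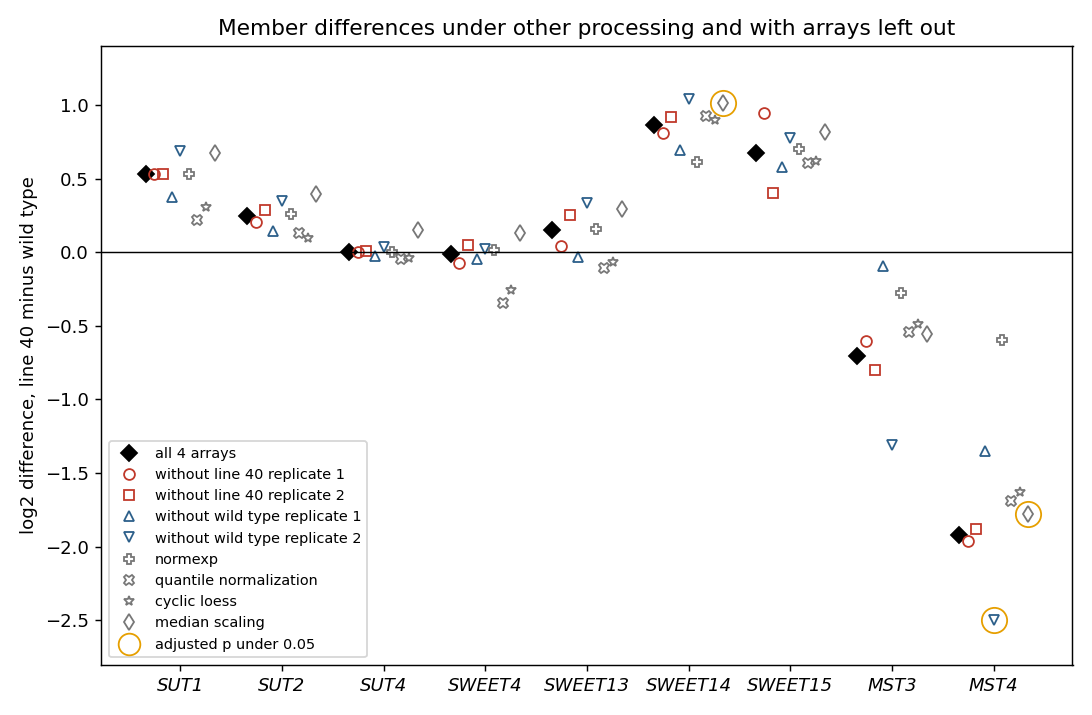
Log2 difference, line 40 minus wild type (vertical axis), of each transporter locus with all 4 arrays (black diamonds). Red marks leave out 1 line 40 array, blue marks leave out 1 wild type array, and grey marks use other background correction or scaling. Orange rings mark a limma adjusted p under 0.05. Where the groups do not overlap, leaving out 1 array cannot turn the sign of a difference. SUT1, SUT2, SWEET14 and SWEET15 stayed above 0 and MST3 and MST4 below 0 at every setting drawn, SUT4, SWEET4 and SWEET13 crossed 0, and the rings fall on SWEET14 with median scaling and on MST4 with median scaling and without wild type replicate 2.

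The gap between the 2 wild type arrays differed with brightness. In 7 of the 9 loci the first wild type array lay below the second, by 0.06 for SUT4 to 0.37 for SWEET13. The same held for 54.8% of all tested loci and for 13 of the 21 other tested family loci. In MST3 and MST4 the first wild type array lay above the second by 1.22 and 1.15. All tested loci were sorted by mean signal into deciles, decile 1 being the dimmest and decile 10 the brightest. The median of the first minus the second wild type array was -0.14 in decile 10, which holds SUT1, SUT2, SWEET4 and SWEET13. It was 0.24 in decile 2, which holds MST4, and 0.15 in decile 3, which holds MST3. The median size of that gap was 0.37 and 0.31 in these 2 dim deciles, so the gaps of MST4 and MST3 were large for spots of their brightness. The line 40 arrays differed by at most 0.21 in 8 of the 9 loci. For SWEET15 they differed by 0.54, where the median size of the gap in its decile was 0.11.

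The comparison between groups also moved with brightness. The median difference was -0.24 and -0.17 in the deciles of MST4 and MST3 and 0.13 in decile 10, so MST3 and MST4 below 0, and SUT1, SUT2 and SWEET13 above 0, stand beside a shift of the same sign among spots of like brightness. SUT4 and SWEET15 also had the sign of their deciles' medians (0.04 and 0.06). SWEET4 and SWEET14 had the opposite sign: SWEET4, in decile 10, lay at -0.01, and SWEET14, at 0.86, lay in decile 6 with a median of -0.08. The filter also admits loci seen in 1 group only. With the stricter filter the median of all tested loci was -0.04, against -0.06 with the filter used here. The part of the filter in this shift was not tested, nor was the part of the shift in the transporters' differences.

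**Figure D3:**
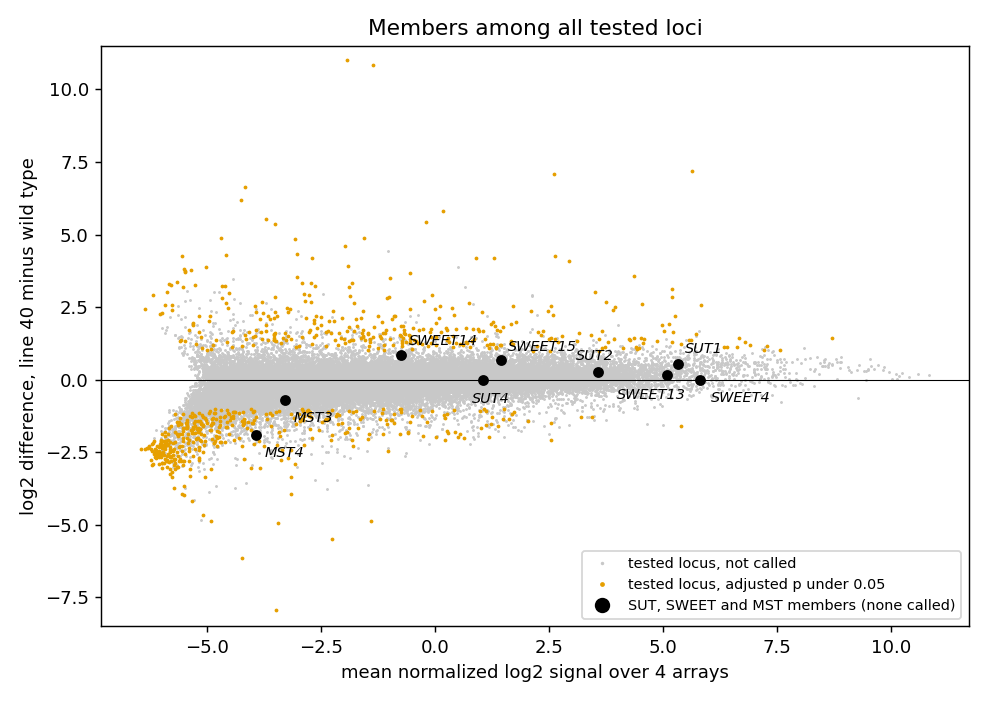
Log2 difference, line 40 minus wild type (vertical axis), against mean normalized log2 signal over the 4 arrays (horizontal axis) for all 36900 tested loci; orange points have a limma adjusted p under 0.05, grey points do not, and the 9 transporter loci are black and named. The transporters lie inside or at the edge of the grey cloud, MST4 lowest at -1.92 and SWEET14 highest at 0.86.

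The other genes of these families on the array give the wider frame: 27 further loci, namely the remaining SUT, SWEET and MST genes and the tonoplast monosaccharide transporters TMT1 and TMT2. Of these, 21 were tested with limma and none was called in either direction, where 2.08% of all tested loci were called. An unadjusted p under 0.05 was found for 7 of the 21, against 24.9% of all tested loci. Among the 7 is SWEET7a, which passed the filter through the wild type arrays alone. Their median difference was -0.13, with 9 above 0 and 12 below. The median turned to 0.01 with median scaling and to 0.0038 without line 40 replicate 2. In neither group did both arrays show a spot well above background for the other 6 loci (SUT5, SWEET5, SWEET7b, SWEET12, MST5 and MST7), which were left untested; MST5 was well above background on 1 line 40 array only. SWEET6a and SWEET6b share 1 RefSeq entry, so their probes may report on the same gene.

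SWEET3a (LOC_Os05g12320), a clade I gene whose rice protein carries glucose and gibberellin, came nearest to the threshold. Its processed signals were 958 and 1143 in line 40, against 1814 and 2564 in the wild type, or 1.25 and 1.41 in line 40 against 2.31 and 2.39 in the wild type after normalization. The groups were well separated and replicates close. The difference was -1.02 (SE 0.15, 95% interval -1.41 to -0.63), or 2.03-fold lower, with a limma adjusted p of 0.0514. It lay between -1.10 and -0.88 over the 13 alternatives. The filters, the mean of probes, the replicate block and the value table could not move this value. Leaving out 1 array could not turn its sign. The difference passed in 3 of the 13, after normexp (limma adjusted p = 0.0141), with median scaling (limma adjusted p = 0.0383) and with the stricter filter (limma adjusted p = 0.0494).

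The next were 2 dim SWEET genes of clade II. SWEET7a (LOC_Os09g08030) had processed signals of 2.50 and 5.74 in line 40, against 18.4 and 23.3 in the wild type, and stood well above background in the wild type only. The fitted difference was -2.43 (SE 0.38, limma adjusted p = 0.0548), which takes the line 40 signals at face value. SWEET7a passed the filter through the wild type arrays alone, which favours a difference below 0. With the line 40 signals raised to their arrays' lowest signal well above background, the bound was 1.97-fold lower, a value not itself tested. MST4 was not well above background at 14.1 and 14.2 on the same arrays, so this bound is no firm limit. After normexp the difference was -0.27 (adjusted p = 0.425), smaller in size than the bound. With median scaling it was -2.28 and passed (adjusted p = 0.00205). It was -1.88 without line 40 replicate 1 and -2.98 without line 40 replicate 2. In these 2 fits the lone line 40 spot was not well above background and the spread came from the wild type arrays. SWEET7c (LOC_Os12g07860) had 21.2 and 24.1 in line 40, against 33.2 and 41.4 in the wild type, a difference of -0.69 (SE 0.15, limma adjusted p = 0.0863; -0.26 after normexp).

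MST8 (LOC_Os01g38680), known in rice from sugar supply to the anther, lay highest. Its processed signals were 4064 and 4750 in line 40, against 932 and 2965 in the wild type, which left the groups apart but the wild type arrays 1.26 from each other. The difference was 1.42 (SE 0.43, 95% interval 0.33 to 2.52), or 2.68-fold, and missed the threshold (limma adjusted p = 0.140). With median scaling it was 1.57 and passed (limma adjusted p = 0.0317). Leaving out wild type replicate 1 gave 0.79, and leaving out wild type replicate 2 gave 2.05, each with the spread taken from the line 40 arrays alone. SWEET2b and SWEET1a, whose probes had the highest mean log2 signal over the 4 arrays among these loci, lay at -0.23 (SE 0.15) and 0.20 (SE 0.15, limma adjusted p = 0.398 and 0.447). The remaining 15 tested loci lay between -0.40 and 0.48, with adjusted p from 0.155 to 0.986.

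By clade, none of the tested SWEET genes was called. The 4 tested clade III genes had a median of 0.41, from -0.13 to 0.86, the 6 clade I genes a median of 0.02, from -1.02 to 0.48, and the 7 tested clade II genes a median of -0.18 with SWEET7a at its bound, the others lying between -0.69 and 0.16. SWEET13, SWEET14 and SWEET15 make up 3 of the 4 clade III genes, so that median largely repeats the values above. The 4 tested SUT genes all lay above 0, with a median of 0.19 that rests on the small differences of SUT1 to SUT4; SUT4 turned below 0 after quantile normalization, after cyclic loess and without wild type replicate 1. The 6 tested MST genes had a median of -0.28, with 2 above 0.

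**Figure D4:**
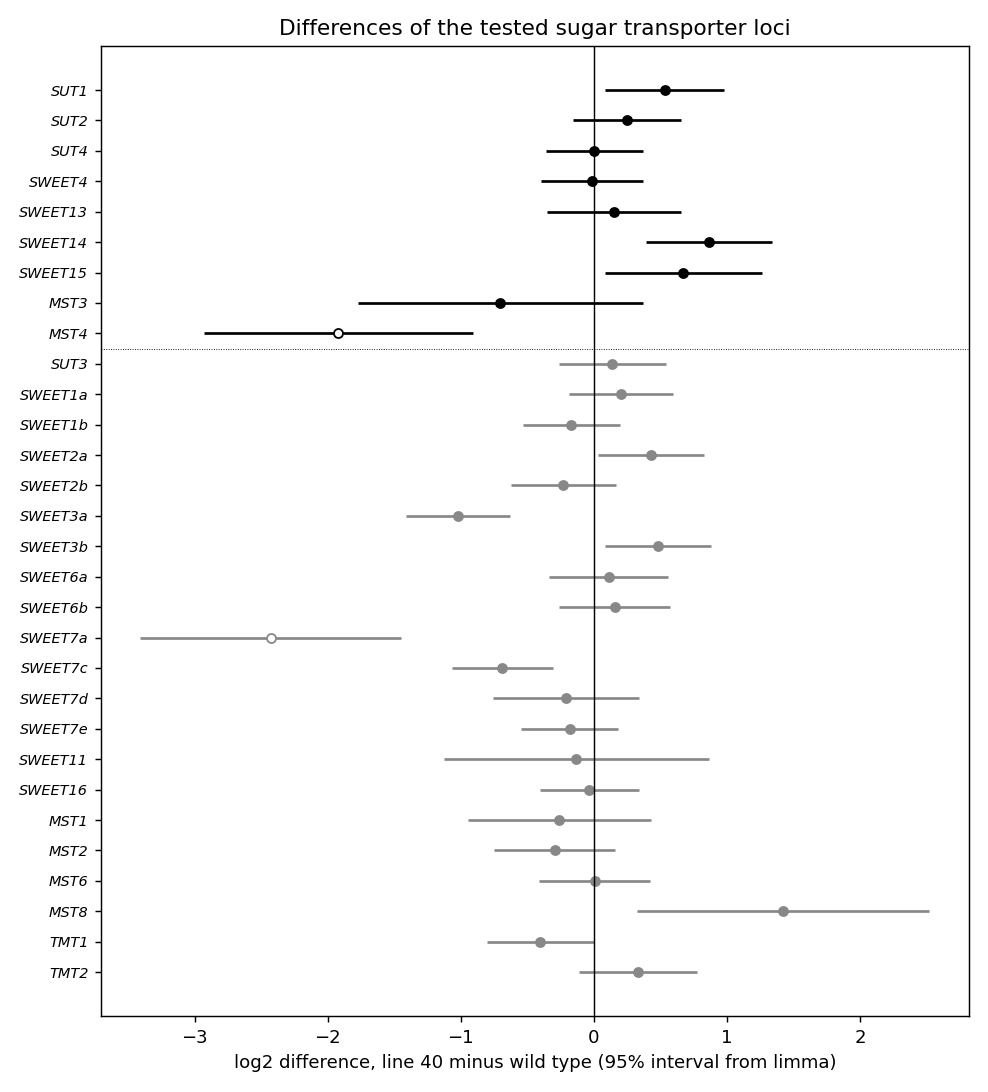
Log2 difference, line 40 minus wild type (horizontal axis), with its 95% limma interval (bars) for the 9 transporter loci (black, above the dotted line) and the 21 other tested loci of the SUT, SWEET, MST and TMT families (grey). Open circles mark MST4 and SWEET7a, not well above background on the line 40 arrays, whose plotted positions are the fitted values and whose levels in line 40 are uncertain. MST8 lies furthest above 0 at 1.42, SWEET3a lies at -1.02, and no locus had an adjusted p under 0.05.

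Whole seedlings mix shoot and root, so marker genes of both were read beside the transporters. Of 6 shoot markers of photosynthesis, limma called 3 (RBCS, LHCB and PSBO) higher and none lower, against 0.930% and 1.15% of all tested loci. But none was called after quantile normalization or without the filter on dim probes, and 1 after cyclic loess. Without wild type replicate 2, 1 of these calls was made, and without any other single array none was. The median difference of the 6 was 0.65, with 5 above 0. Of 9 root markers limma called none and 4 had an unadjusted p under 0.05, against 2.08% and 24.9% of all tested loci. Their median was -0.10, with 4 above 0 and 5 below, from -1.36 for AMT1-2 to 1.19 for PIP2-3. Normexp and median scaling each called 2 root markers higher and 1 lower. Signals summed over a list, in units of the array's 75th percentile, were 2925 and 2988 in line 40 against 2694 and 2328 in the wild type for shoot markers, and 222 and 209 in line 40 against 137 and 159 in the wild type for root markers. These sums are weighted by probe brightness: CAB2R and RCA make up most of the shoot sum and RCC3 most of the root sum, and none of these 3 was called. All markers of both lists were well above background on all 4 arrays. The part of organ share in the transporters' differences was not tested.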

How the data were processed

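RNA of each sample, carrying the Cy3 dye, was put on a custom 1-colour array whose probes are named by MSU rice loci. Per the file headers, spot intensity came from Agilent Feature Extraction version 10.7.1.1, which subtracted background and detrended the processed signal without normalization between arrays. The value table the authors deposited held the same intensity (ratio 1 at all 62976 spots). All 4 arrays lay on 1 slide.

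Computed here from the deposited intensity: each processed signal over its array's 75th percentile (non-control probes), as log2. Control spots (1319) and uneven spots (32 probes) were left out, and spots of a probe were averaged. A locus was tested if both arrays of either group showed a probe well above background, and the brightest such probe stood for it. The 75th percentiles were 404 and 431 (line 40) and 367 and 488 (wild type), and the lowest signals well above background 9.97 to 10.9. No spot of the listed genes was saturated. Groups were compared with limma 3.58.1 (two-sided lmFit and eBayes in R 4.3.3, with version 1.17.8 of the data.table package) with Benjamini-Hochberg adjustment at 0.05, checked on simulated data. A bound sets the bright group's mean against the dim group's mean. A dim value under the array's lowest signal well above background is first raised to that signal. Some spots above that signal are still not well above background, as MST4 was in line 40, so a bound is no firm limit. The number of arrays limits the precision.

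Alternatives were normexp (on median spot signals, offset 50, since the files hold no mean signal), quantile, median and cyclic loess scaling, no filter, a stricter filter (all 4 arrays), the mean of a locus's probes, a replicate block, the value table and leaving out each array. The members and lists were chosen with earlier results of these data known. Named were all members, and of 27 other family loci those called or otherwise the 4 with the smallest adjusted p, the 2 with the highest mean log2 signal and those measured in 1 group only; the loci not tested, those sharing a RefSeq entry and the markers were named after their values were seen. Symbols come from hand-written lists: 13 of the 27 matched RefSeq by chromosome and order and 14 had no entry. The 13 include SWEET6a and SWEET6b, which share 1 entry and so cannot be ordered against each other. The array design (IRGSP5) and RefSeq's assembly differ, so no coordinates are given, and no sequences were used here.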

Additional observations from a re-analysis of the deposited data

How the results depend on the processing

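With 2 arrays per group, calls moved with the array left out and the scaling, while most directions held. Where the groups do not overlap, leaving out 1 array could not turn a direction. Among the 9 transporters, 1 was called higher (SWEET14) and 1 lower (MST4) with median scaling, and between 0 and 1 lower when single arrays were left out; no other alternative called any. The calls over all loci were 764 higher after normexp, 1485 higher and 1250 lower with median scaling, and 15 and 8 without the filter on dim probes. Lower calls were 155 after quantile normalization, 254 after cyclic loess and 172 with the stricter filter. Leaving out single arrays gave 74 to 303 higher and 256 to 1499 lower calls.

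Of the other family loci, 1 was called higher and 2 lower with median scaling, and 1 lower each after normexp, with the stricter filter and with the replicate block; leaving out single arrays gave 0 to 1 in each direction. Among shoot markers, 0 were higher after quantile normalization, 1 after cyclic loess, 0 without the filter, and 0 to 1 with single arrays left out. Among root markers, 2 were higher and 1 lower after normexp, likewise 2 and 1 with median scaling, and 0 to 1 lower with single arrays left out.

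SUT4 turned to -0.046 after quantile normalization and -0.037 after cyclic loess, and lay between -0.025 and 0.032 with single arrays left out (negative without wild type replicate 1). SWEET4 turned to 0.012 after normexp and 0.13 with median scaling, and lay between -0.076 and 0.051 with single arrays left out (positive without line 40 replicate 2 or wild type replicate 2). SWEET13 turned to -0.11 after quantile normalization and -0.066 after cyclic loess, and lay between -0.034 and 0.33 with single arrays left out (negative without wild type replicate 1). The cause of these turns was not tested, and all 3 differences lay within 1 SE of 0. MST4 has no value under the stricter filter, nor has SWEET7a.

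The replicate numbers give 2 pairs only and are not stated to mark a shared batch. Deviations of same-numbered arrays correlated at -0.07 over loci. With the replicate number as a block, SWEET7a passed (adjusted p = 0.0429), none of the 9 transporters did, and 318 higher and 460 lower loci were called.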
